A study of Mus musculus with 6 samples.

Results

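Ribosomal protein pseudogenes are copies of ribosomal protein mRNAs that were reverse transcribed and inserted elsewhere in the genome. Mouse gene nomenclature marks them with the suffix -ps after the name of the parent gene, so that Rpl13-ps3 is a copy of Rpl13. The members described here are the genes of the mouse count table whose symbol starts with Rpl or Rps and ends in -ps with or without a number. They were chosen from the contrast described below, because Rpl13-ps3 was among the genes with the largest fall, so the changes of the members in that contrast are a description. Counts of members called by the fit over all genes are given beside the share of all genes called, and support nothing. Of 48709 genes in the table, 276 were members. A further 24 members of the annotation have no row in the table.

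RNA was sequenced from G1E-ER4 cells, a mouse line of red cell progenitors of embryonic stem cell origin. The line carries GATA-1, the master transcription factor of erythroid genes, as a fusion that responds to an estradiol receptor ligand. All 6 libraries came from cells given tamoxifen for 28 h, which moves the fusion protein into the nucleus and starts erythroid differentiation. The cells had received 1 of 2 peptides 2 h earlier, both at 10 μM and both joined to the Tat nuclear localization signal. The CHD4-APR peptide copies an aliphatic stretch of CHD4, the remodelling ATPase of the NuRD and ChAHP complexes, and the CTRL peptide is a run of alanines. There were 3 libraries of each, and no library without peptide or without tamoxifen was analysed here. The labels do not say whether the 3 libraries of a group came from separate cultures, so the p-values measure the spread between these libraries, which may be technical. The libraries held 41687482 to 49784177 counted reads. All 14 erythroid markers examined passed the expression filter, whereas 10 of 20 markers of other blood, endothelial, stromal, epithelial and embryonic stem cells had 0 reads in every library, among them Mpo, Cd3e, Pou5f1 and Nanog. The 5 of the 20 that passed the filter were Itga2b (34.7 CPM, a read count scaled to library size with TMM factors) and Gp9 (10.3 CPM), which megakaryocytes express, with Csf1r (4.06 CPM), Cd79a and Pf4. Of these Gp9 fell in CHD4-APR by 0.31 on the log2 scale (false discovery rate, FDR = 0.00986 by edgeR). Itga2b (-0.097), Csf1r (-0.10), Cd79a (-0.026) and Pf4 (0.44) were not called, and their groups overlapped. The part of Gp9 in the values below was not tested.

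Ribosomal protein mRNAs are short, very abundant and made in every cell, and they are the commonest source of processed pseudogenes in mammalian genomes. A processed pseudogene has no introns, lacks the promoter of its parent unless it landed next to another, and often carries substitutions or small deletions that interrupt the reading frame. Young copies differ from the parent at few positions. A short sequencing read from such a stretch can then match the parent, the copy and further copies equally well, and the level counted for a copy depends on how such reads are assigned. How the counting treated reads with several alignments, and whether it used strand, are not given in the sources used here, and the library kit does not mark strand.

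Rpl13-ps3 is a single exon of 624 bases on the plus strand of chromosome 14 (chr14:58893506-58894129, GRCm38). It aligned over the whole Rpl13 coding sequence with 96.5% identity, 10 mismatches and 1 gap of 12 bases, and it reads 207 codons before a stop where Rpl13 reads 211. Of the 50-base words of Rpl13-ps3, 54.8% occur in Rpl13 transcripts and 62.8% occur in at least 1 of 14 other genes.

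Copies of Rps6, which encodes a small-subunit protein phosphorylated by S6 kinase, are shown because 1 of them is identical to the parent coding sequence and another is not. Capitals mark differences over the first 120 bases of the coding sequence. Rps6-ps3 lies here at chr9:53690164-53690283 on the minus strand.
Rps6: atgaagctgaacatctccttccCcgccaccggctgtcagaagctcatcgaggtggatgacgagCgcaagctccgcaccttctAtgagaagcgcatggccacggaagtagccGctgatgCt
Rps6-ps3: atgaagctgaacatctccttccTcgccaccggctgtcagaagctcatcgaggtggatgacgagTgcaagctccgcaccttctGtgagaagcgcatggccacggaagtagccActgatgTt
Rps6-ps3 differs from Rps6 at 11 positions over the whole coding sequence and at 5 of them here, whereas Rps6-ps4 on chromosome 2 has 100% identity to it throughout.

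The copies of Rpl35a, a protein of the large subunit, are shown because 4 of them share 1 sequence. Rpl35a-ps2, Rpl35a-ps3, Rpl35a-ps4 and Rpl35a-ps6 lie on chromosomes 1, 17, 2 and 5, are 333 bases long and have 0 differences among themselves. They differ from Rpl35a at 1 base, in capitals.
Rpl35a: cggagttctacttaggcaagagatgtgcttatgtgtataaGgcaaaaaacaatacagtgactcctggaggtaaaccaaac
Rpl35a-ps2: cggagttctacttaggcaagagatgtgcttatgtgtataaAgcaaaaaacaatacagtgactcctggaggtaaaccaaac
The stretch of Rpl35a-ps2 is chr1:181242126-181242205 on the minus strand.

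The name of Rpl36a-ps3 points to Rpl36a, but its sequence is nearest to Rpl36al, the intronless relative of Rpl36a that codes for a similar protein. It differs from the Rpl36a coding sequence at 40 positions of 321 and from that of Rpl36al at 1. The first 90 bases, with differences of Rpl36a from the copy in capitals and the copy at chr6:136488807-136488896 on the plus strand, show this.
Rpl36a: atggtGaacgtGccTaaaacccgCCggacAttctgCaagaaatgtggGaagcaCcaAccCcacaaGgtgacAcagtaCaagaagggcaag
Rpl36a-ps3: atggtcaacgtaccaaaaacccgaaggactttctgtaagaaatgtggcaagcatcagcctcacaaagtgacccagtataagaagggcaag
Rpl36al has the same 90 bases as the copy. Of the members in the table, 2 shared more 50-base words with another ribosomal protein gene than with the parent in their name, and for these the named parent is a poor reference.

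The 276 members named 61 parents, of which 60 were in the table. The annotation types 264 of the members as processed pseudogenes, 6 as transcribed processed pseudogenes and 6 as protein coding, and 270 have a single exon. No read was counted for 74 members in any library, and 91 had reads but too few to pass the expression filter, with a mean of at most 11.3 reads. The other 111 members were carried into the fit. The filter separated members by sequence as well as by level. Members that passed had a median identity to the parent coding sequence of 99.1%, and a median of 60.7% of their 50-base words occurred in the parent. Members that did not pass had a median identity of 92.4% and a median share of 3.82%. None of the latter shared more than 49.2% of its words with the parent. The reading frame could be followed from the parental start position in 102 of the members that passed, and 61 of these kept a frame from ATG whose length was within 5% of the parent's.

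The counted level of the members was concentrated in few of them. Only 10 had a mean of at least 100 CPM, 46 at least 10 and 81 at least 1. The 8 highest took 58.1% of the summed CPM of all members. Together the members took 0.502%, 0.472% and 0.468% of the counted reads in CTRL and 0.398%, 0.410% and 0.427% in CHD4-APR. Every CHD4-APR library was below every CTRL library, and CHD4-APR 3 was the nearest to them.

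Across the 111 members in the fit, 102 were lower in CHD4-APR and 9 were higher. The median log2 fold change (CHD4-APR against CTRL) was -0.30, with quartiles of -0.40 and -0.20, whereas the median over all 12722 genes tested was -0.012. By edgeR's quasi-likelihood test at a false discovery rate (FDR) of 0.05, 49 members were called lower and 0 were called higher. Over all genes tested, 17.8% were called lower and 20.4% higher, but since the family was picked from this contrast nothing is read from its count. The 3 CHD4-APR values lay below the 3 CTRL values for 63 members, and 25.0% of all genes tested behaved so. In bulk RNA, fewer cells of a type and less RNA per cell cannot be told apart.

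Members are short, with a median exonic length of 475 bases against 3688 for all genes tested, and their median GC content was 50.6% against 49.6%. With the fold changes corrected for length and GC content, 27 members were called lower and 0 higher, beside 16.6% of the 12677 genes of that fit, and the median of the members was -0.18 where that of all genes was -0.028.

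Rpl13-ps3 was counted 1416, 1241 and 1344 times in CTRL and 626, 664 and 1024 times in CHD4-APR. Its level was 33.4, 25.1 and 32.5 CPM in CTRL and 14.0, 15.5 and 21.7 CPM in CHD4-APR. The groups did not overlap, but CHD4-APR 3 lay nearer to CTRL 2 than to the other CHD4-APR libraries. The means were 30.3 ± 4.54 CPM (SD, n = 3) and 17.1 ± 4.06 CPM (SD, n = 3), a log2 fold change of -0.82 (SE 0.13), and it was the lowest of the 71 members averaging 1 log2 CPM or more. Without CHD4-APR 3 the log2 fold change was -1.03, and with the length and GC correction it was -0.63.

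The parent, Rpl13, encodes a protein of the large subunit. It had 1617, 1410 and 1460 CPM in CTRL and 1241, 1269 and 1279 CPM in CHD4-APR, so its groups did not overlap either. Its log2 fold change was -0.24 (SE 0.050, FDR = 0.00108 by edgeR). Per kilobase of exon, Rpl13-ps3 stood at 8.60%, 7.41% and 9.25% of the Rpl13 level in CTRL and at 4.69%, 5.09% and 7.05% in CHD4-APR. The exonic length of a parent here counts every annotated transcript, retained introns included. Rpl13-ps6, at 13.6, 13.7 and 13.8 CPM in CTRL and 11.1, 11.7 and 11.5 CPM in CHD4-APR, had a log2 fold change of -0.26 (SE 0.073), close to that of Rpl13.

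**Figure D1:**
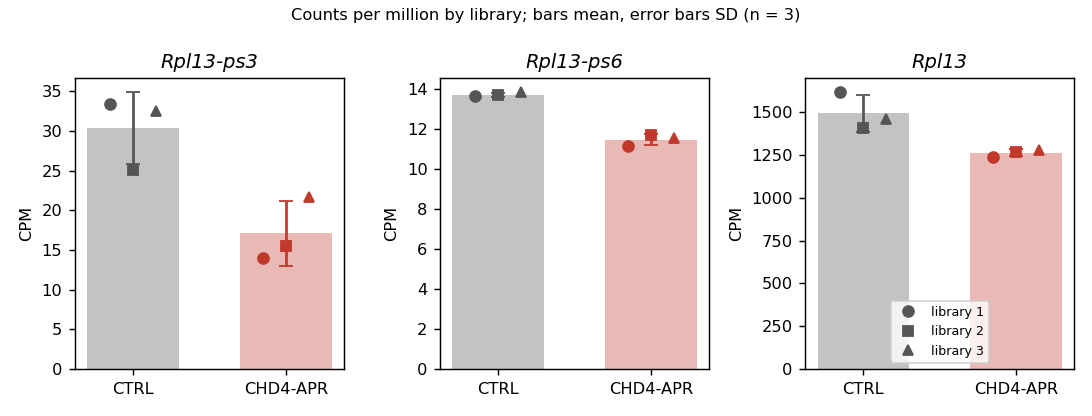
Levels of Rpl13-ps3, Rpl13-ps6 and Rpl13 in CPM in each library, with 3 CTRL and 3 CHD4-APR libraries as points, the mean as a bar and the SD as an error bar. Rpl13-ps3 averaged 30.3 CPM in CTRL and 17.1 CPM in CHD4-APR, with CHD4-APR 3 at 21.7 CPM above the other CHD4-APR libraries.

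The 5 genes whose log2 CPM over the 6 libraries followed Rpl13-ps3 most closely were Gm12091 (Pearson r = 0.999), Decr2, Gm8225, Sap18b and Ift27 (r = 0.994 for the last), as a description over libraries that carry the contrast itself. In all, 1058 genes exceeded r = 0.9. Gm12091 and Gm8225 are processed pseudogenes without a -ps symbol, and 33.2% and 24.3% of their 50-base words occur in Rps2. Decr2, a peroxisomal dienoyl-CoA reductase, Sap18b and Ift27, a small GTPase of intraflagellar transport, are annotated as coding and share no such word with a ribosomal protein gene.

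Of the members at 1 log2 CPM or more, the next lowest after Rpl13-ps3 were 2 copies of Rps6. Rps6-ps3 had 84.0, 71.1 and 76.7 CPM in CTRL and 41.4, 48.4 and 64.2 CPM in CHD4-APR, a log2 fold change of -0.59 (SE 0.11). Rps6-ps1, a rarer copy at 3.05, 2.63 and 2.46 CPM in CTRL and 1.48, 1.73 and 1.82 CPM in CHD4-APR, changed by -0.69 (SE 0.16). Neither overlapped between groups, and CHD4-APR 3 was the highest CHD4-APR library in both. Rps6-ps4, the copy identical to the parent coding sequence, was the most abundant member, with 639, 610 and 569 CPM in CTRL and 495, 500 and 522 CPM in CHD4-APR. Its log2 fold change was -0.26 (SE 0.047), and that of Rps6 itself was -0.17 (SE 0.045, FDR = 0.00802 by edgeR). With the length and GC correction Rps6-ps4 was at -0.15. The 3 copies of 1 parent thus ranged from -0.69 to -0.26, and the Rps6-ps3 level per kilobase went from 10.9%, 9.62% and 10.9% of Rps6 in CTRL to 6.36%, 7.45% and 9.46% in CHD4-APR, where the groups did not overlap.

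Rpl10-ps6, a copy of the large-subunit gene Rpl10 with 1 mismatch over its alignment, had 43.5, 37.7 and 40.4 CPM in CTRL and 23.0, 26.7 and 32.8 CPM in CHD4-APR. The log2 fold change was -0.56 (SE 0.095), beside -0.27 (SE 0.046) for Rpl10. All 4 copies of Rpl10 in the fit were lower, from -0.56 to -0.36. Rps12-ps1 had 4.23, 3.69 and 3.00 CPM in CTRL and 2.39, 2.29 and 2.86 CPM in CHD4-APR, and changed by -0.53 (SE 0.15). It was called in the fit of all libraries, but not with the length and GC correction (-0.41) unless the replicate block was added, nor without CTRL 1 (-0.41) or CHD4-APR 2 (-0.47). The groups of Rpl10-ps6 and Rps12-ps1 did not overlap, although CTRL 3 and CHD4-APR 3 were close for Rps12-ps1. Rps12, of the small subunit, changed by -0.28.

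CHD4-APR 3 stood nearest to CTRL for most members, as the plot of named members by library shows. Among the 71 members at 1 log2 CPM or more it was the highest CHD4-APR library for 50, with CHD4-APR 1 the highest for 11 and CHD4-APR 2 for 10. The median distance from the CTRL mean was -0.33, -0.31 and -0.24 log2 CPM in CHD4-APR 1, 2 and 3 for these members, and -0.27, -0.23 and -0.16 for the parents. Over all genes tested it was -0.0080, -0.0081 and -0.0043. Without CHD4-APR 3, 50 members were called lower and 1, Rps15a-ps6, higher, beside 13.7% of all genes called lower and 18.3% higher in that fit, and the median log2 fold change of the members was -0.34.

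**Figure D2:**
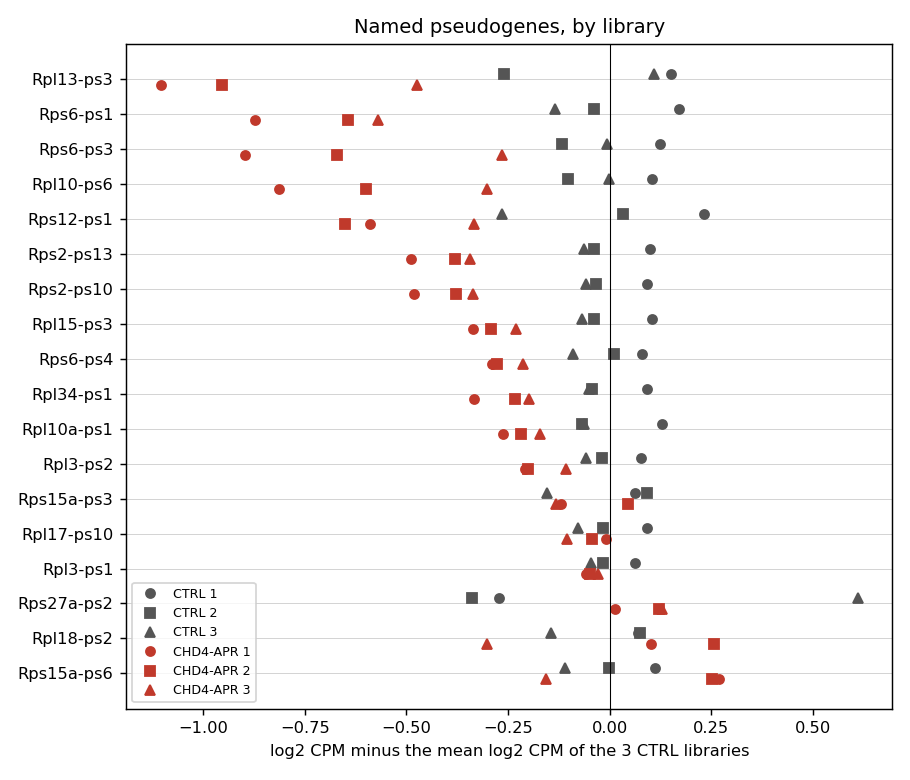
Log2 CPM of 18 named members in each library minus the mean of the 3 CTRL libraries, ordered by fold change, with CTRL in grey and CHD4-APR in red. In Rpl13-ps3, Rps6-ps3 and Rpl10-ps6 CHD4-APR 3 lies between CTRL and the other CHD4-APR libraries, and in Rps27a-ps2 CTRL 3 lies apart.

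Rpl15-ps3, Rpl34-ps1 and Rpl10a-ps1 were other abundant members, all 3 lower in CHD4-APR. Rpl15-ps3, which is identical to the Rpl15 coding sequence, had 482, 437 and 428 CPM in CTRL and 355, 366 and 382 CPM in CHD4-APR (log2 fold change -0.29, SE 0.050), and Rpl15 changed by -0.20. Rpl34-ps1 had 377, 343 and 342 CPM in CTRL and 281, 301 and 309 CPM in CHD4-APR (-0.25, SE 0.050), beside -0.26 for Rpl34. Every 50-base word of Rpl34-ps1 occurs in at least 1 other gene. Its counted level per kilobase, 920 CPM, was above the 184 CPM of Rpl34, whose 2643 bases of exonic length count every annotated transcript. Before division by length Rpl34 was the higher, at a mean of 486 CPM. Rpl10a-ps1, also identical to its parent, had 186, 162 and 162 CPM in CTRL and 141, 146 and 151 CPM in CHD4-APR (-0.22, SE 0.054), beside -0.17 for Rpl10a. In none of these did the groups overlap. With the length and GC correction the log2 fold changes became -0.12 for Rpl15-ps3, -0.11 for Rpl34-ps1 and -0.051 for Rpl10a-ps1, and Rpl10a-ps1 was no longer called, nor was Rpl34-ps1 unless the replicate block was added.

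Of 8 copies of Rps2, a small-subunit gene, in the table, 4 were in the fit, and their log2 fold changes ran from -0.49 to 0.27. Rps2-ps13 had 238, 216 and 213 CPM in CTRL and 158, 171 and 175 CPM in CHD4-APR. Rps2-ps10 had 250, 229 and 225 CPM in CTRL and 168, 181 and 186 CPM in CHD4-APR. Both had a log2 fold change of -0.40 (SE 0.052 and 0.051), where Rps2 changed by -0.25 (SE 0.044, FDR = 0.000288 by edgeR). With the length and GC correction these copies were at -0.21 and -0.23. Rps2-ps6, named after its values were seen, had 117, 107 and 108 CPM in CTRL and 74.2, 77.8 and 84.7 CPM in CHD4-APR (-0.49, SE 0.055, and -0.30 with the correction). In these 3 copies the groups did not overlap. Rps2-ps5, also named after its values were seen, had the highest log2 fold change of the 111 members, 0.27 (SE 0.45, and 0.46 with the correction), on 7 to 15 counts a library with overlapping groups. Of the 50-base words of Rps2-ps13 and Rps2-ps10, 89.8% and 96.3% occur in other genes, each other included. Reads may thus have been shared, and the copies cannot be taken as independent measurements.

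The copies of Rpl3, which encodes the large-subunit protein next to the peptidyl transferase centre, differed from each other. Rpl3-ps1 on the X chromosome had 545, 516 and 505 CPM in CTRL and 501, 505 and 512 CPM in CHD4-APR, with overlapping groups and a log2 fold change of -0.045 (SE 0.042). That value was 0.072 with the length and GC correction. Rpl3-ps2 had 259, 242 and 236 CPM in CTRL and 212, 213 and 228 CPM in CHD4-APR, a change of -0.17 (SE 0.047) without overlap, which was -0.056 with the correction and -0.15 without CHD4-APR 2, and was called in neither. Rpl3 changed by -0.17 (SE 0.043).

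At the other end of the order, the highest log2 fold change among members at 1 log2 CPM or more was 0.13 (SE 0.098), for Rps15a-ps6. It had 19.9, 18.4 and 17.1 CPM in CTRL and 22.2, 21.9 and 16.5 CPM in CHD4-APR, so that CHD4-APR 3 was below every CTRL library and the other CHD4-APR libraries were above them. Leaving out 1 library moved the log2 fold change from 0.060 without CHD4-APR 1 to 0.26 without CHD4-APR 3, and it was 0.070 without CHD4-APR 2 and 0.077 without CTRL 3. Its parent Rps15a changed by -0.16 (SE 0.042, FDR = 0.00608 by edgeR), and another copy, Rps15a-ps3, by -0.074 (SE 0.10) with 7.46, 7.61 and 6.42 CPM in CTRL and 6.58, 7.37 and 6.52 CPM in CHD4-APR. Rpl17-ps10 had 48.9, 45.3 and 43.5 CPM in CTRL and 45.6, 44.5 and 42.6 CPM in CHD4-APR (-0.053, SE 0.057, and 0.015 with the correction). Rpl18-ps2 had 2.38, 2.39 and 2.05 CPM in CTRL and 2.44, 2.71 and 1.84 CPM in CHD4-APR (0.028, SE 0.17), and its log2 fold change was 0.23 with the length and GC correction. The groups of these members overlapped.

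Rps27a-ps2 shows how far 1 library can set a value. It is a copy of Rps27a, which encodes ubiquitin joined to a small-subunit protein, and it had 18.2, 17.4 and 33.6 CPM in CTRL and 22.2, 23.9 and 24.1 CPM in CHD4-APR. CTRL 3 was above all CHD4-APR libraries and the other CTRL libraries were below them. Rps27a itself had 822, 768 and 739 CPM in CTRL, with CTRL 3 the lowest. The log2 fold change of Rps27a-ps2 was 0.026 (SE 0.17), and it was -0.11 and -0.15 without CTRL 1 and CTRL 2 and 0.39 without CTRL 3.

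The 4 copies of Rpl35a with the same sequence were counted almost equally. Rpl35a-ps2 had 2675, 2763 and 2179 reads in CTRL and 1920, 1910 and 2267 reads in CHD4-APR. Over Rpl35a-ps2, Rpl35a-ps3 and Rpl35a-ps4 the counts of a library differed by at most 17 reads, whereas the square root of a count, the spread that separate counting would give, was 43.7 to 52.6 reads. Rpl35a-ps6 was lower than Rpl35a-ps2 by at most 133 reads. The log2 fold changes were -0.34 for 3 of them and -0.33 for Rpl35a-ps6, and Rpl35a changed by -0.21. Rps19-ps1 and Rps19-ps2, also identical to each other, differed by at most 4 reads at a mean of 66.2 and 67.7. Equal sequence did not always go with equal counts. Rpl10-ps1 and Rpl10-ps3 have no difference over 645 aligned bases, although Rpl10-ps3 is annotated as 768 bases long, and their mean counts were 1244 and 2262 reads, up to 1282 reads apart in a library. With the copies of Rpl35a and of Rps19 that share their whole sequence each counted once, 46 of 107 members were called lower, beside the 17.8% of all genes, and the median stayed at -0.30.

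**Figure D3:**
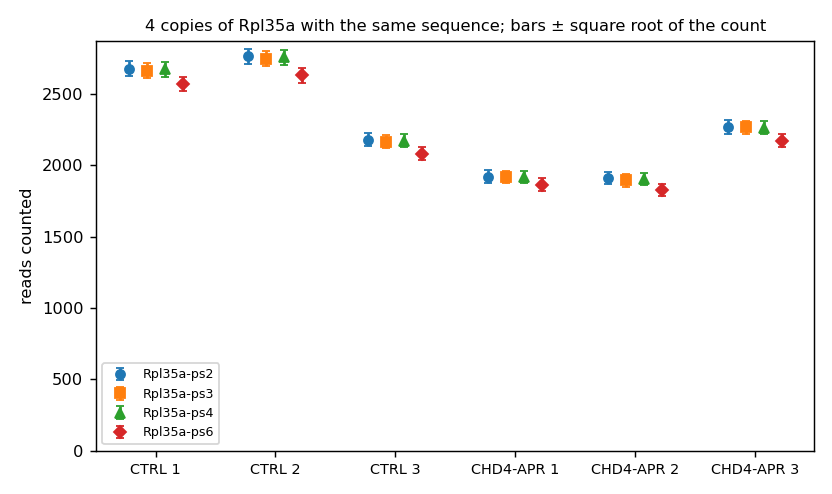
Reads counted for 4 copies of Rpl35a with the same sequence in each of the 6 libraries, with error bars of plus and minus the square root of the count. Within a library Rpl35a-ps2, Rpl35a-ps3 and Rpl35a-ps4 lie within 17 reads of each other, and Rpl35a-ps6 is lower.

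The parents, like the members, were mostly lower in CHD4-APR. Of 59 parents tested, 57 fell (FDR under 0.05 by edgeR) and 0 rose, and the median log2 fold change was -0.21. Beside this and the other lists below, 17.8% of all genes tested were called lower and 20.4% higher. Rpl7, at 0.036 (SE 0.041), and Rpl7l1 were not called. Of 83 genes for cytosolic ribosomal proteins, 78 fell and 0 rose, with a median of -0.22. With the length and GC correction 49 of these genes and 39 of the parents fell, beside 16.6% of all genes in that fit. Among 20 other mRNAs with a 5′ terminal oligopyrimidine tract, the sequence through which mTOR signalling controls translation of ribosomal protein mRNAs, 8 fell and 3 rose, and the 11 calls became 7 without CTRL 3 or CHD4-APR 3 and 4 without CHD4-APR 1 or CHD4-APR 2. Those that fell included Eef1d, an elongation factor subunit, at -0.28, and those that rose included Eef1a1, the elongation factor that brings tRNA to the ribosome, at 0.13. Of 114 other tested pseudogenes with a -ps symbol, 19 (16.7%) were called lower and 12 (10.5%) higher, with a median of -0.055. With the length and GC correction the balance turned, to 7 lower and 17 higher with a median of 0.016. In that fit 16.6% of all genes were called lower and 11.4% higher. Of the 14 erythroid markers, 6 fell and 2 rose. Those that fell were the 4 globin genes, Klf1 and Nfe2, and those that rose were Gata1, at 0.21, and the transferrin receptor gene Tfrc, at 0.26. The line carries GATA-1 as a fusion, and whether reads of the fusion were counted as Gata1 was not tested. The summed level of the 14, mostly globin, was 72480 to 77790 CPM in CTRL and 61885 to 65970 CPM in CHD4-APR, and its part in the values of the members was not tested.

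Of the 111 pairs of a member and its parent, the member had the lower log2 fold change in 77. The median difference was -0.082, with quartiles of -0.19 and 0.038. With the length and GC correction the median difference had the opposite sign, at 0.032. That correction used exonic lengths that count every annotated transcript, with medians of 475 bases for members and 1840 for parents. It therefore treated a copy and its parent as of unlike length, and nothing is read from the sign. The differences of single members from their parents were larger. Over the 111 they ran from -0.72 for Rpl21-ps8 to 0.53 for Rps2-ps5, both under 1 log2 CPM and named after their values were seen. Among the 71 at 1 log2 CPM or more they were farthest from 0 at -0.58 for Rpl13-ps3, -0.53 for Rps6-ps1 and -0.42 for Rps6-ps3 on one side, and at 0.31 for Rps27a-ps2 and 0.29 for Rps15a-ps6 on the other. Across members, the fold change of the parent told little of that of the copy (Spearman rho = 0.080 over 111 pairs, which share the libraries).

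**Figure D4:**
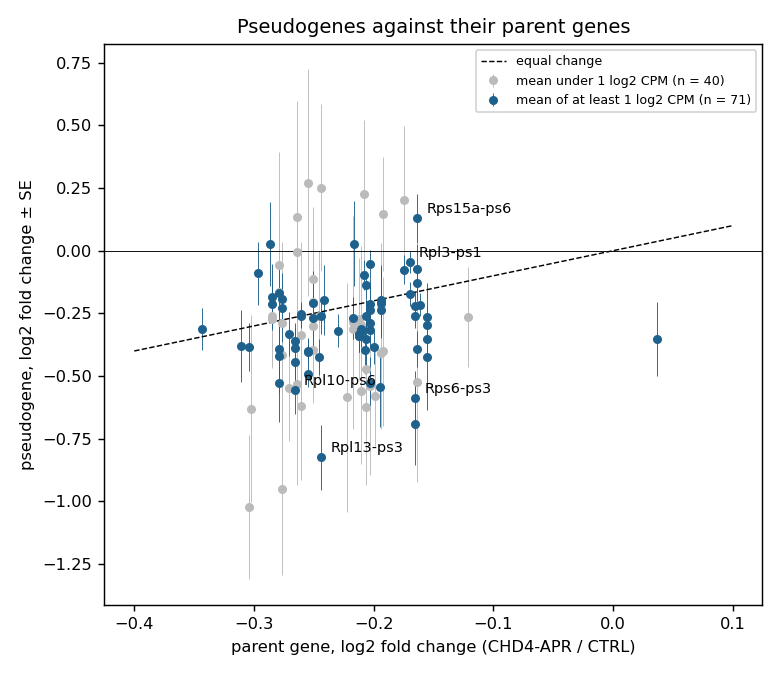
Log2 fold change of each of 111 members with its SE against that of its parent, in blue for the 71 members averaging 1 log2 CPM or more and in grey for the 40 others. Most points lie below 0 on both axes, Rpl13-ps3 and Rps6-ps3 lie far below the dashed line of equal change, and the grey points have the wider SE (median 0.30 against 0.080).

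Spearman's rho between the share of 50-base words held by the parent and mean log2 CPM was 0.62 over the 111 members and 0.28 over the 71 at 1 log2 CPM or more. Between that share and the log2 fold change it was 0.11 over the 111 and 0.058 over the 71, where the points share libraries and may share reads that match several copies. Among these 71, there were 13 for which every 50-base word occurs in the parent, with log2 fold changes from -0.38 to -0.098 with a median of -0.26. The 11 of the 71 with under 50% of their words in the parent ranged from -0.69 to -0.074 with a median of -0.35. The 27 of the 71 between 50% and 80% held both extremes of the 71, Rpl13-ps3 at -0.82 and Rps15a-ps6 at 0.13, with a median of -0.26. The other 20, with 80% or more but not all of their words in the parent, ranged from -0.56 to 0.026 with a median of -0.33, so the medians followed no order with the share.

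**Figure D5:**
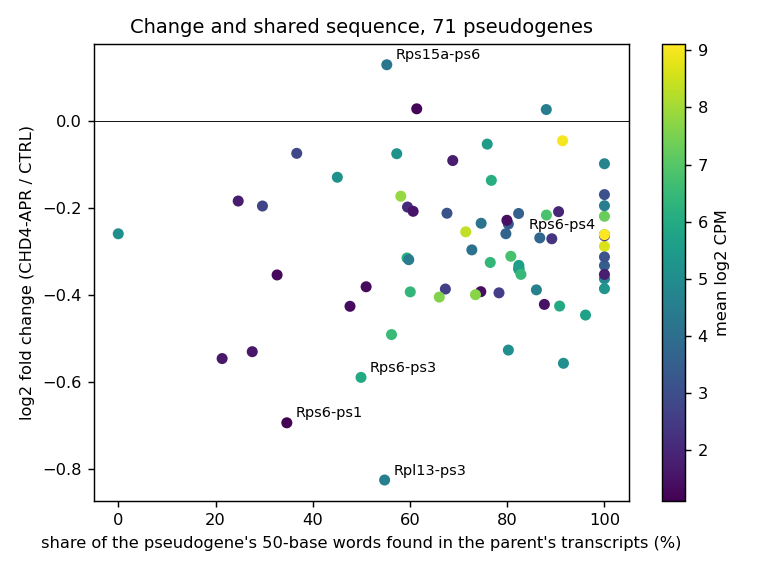
Log2 fold change of the 71 members averaging 1 log2 CPM or more against the share of their 50-base words found in the parent, coloured by mean log2 CPM. The 13 members at 100% lie between -0.38 and -0.098, and the values spread more widely at lower shares.

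Many members lie within other genes. Of the 111 members in the fit, 44 were inside another gene and 40 of these had no overlap with any exon. Members inside a gene had a median log2 fold change of -0.32 and the 67 others of -0.27. Rpl10-ps6 lies in an intron of Ide, the insulin-degrading enzyme, on the same strand, and Ide rose by 0.27 (FDR = 0.00456 by edgeR). Rps6-ps3 lies in an intron of Rab39, for which no read was counted. Of 25 pairs whose host was tested, 9 hosts were called higher and 3 lower at an FDR of 0.05 by edgeR. Over all genes tested 20.4% were called higher and 17.8% lower. The hosts had a median of 0.081, and 8 of them were lower in direction. The changes of member and host had a Spearman rho of -0.0062 over these pairs. Rps12-ps4, Rps23-ps1 and Rps23-ps2 overlap exons of genes on the other strand, by 46.1%, 93.2% and 91.7% of their length, and reads from either strand cannot be told apart there.

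The members under 1 log2 CPM were measured loosely. In these 40 the SE had a median of 0.30, and they held the lowest value of all, -1.02 (SE 0.29) for Rpl21-ps8 with 36, 43 and 34 reads in CTRL and 14, 20 and 22 reads in CHD4-APR. Rpl31-ps14 had 21, 22 and 24 reads in CTRL and 10, 12 and 13 reads in CHD4-APR (-0.95, SE 0.34). Neither overlapped between groups. The highest value, 0.27, was also among them, and no member was higher by more than 1.5-fold, whereas 8 were lower by more than that, 3 of them at 1 log2 CPM or more.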

How the data were processed

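RNA of 6 G1E-ER4 libraries (3 CTRL, 3 CHD4-APR) was sequenced as poly(A) RNA. The authors trimmed reads with cutadapt, aligned them with STAR 2.7.10a to GRCm38 and deposited raw counts per Ensembl gene from featureCounts. 2 columns that match no sample were not used. Symbols came from GENCODE M21, which matched 48349 of 48709 identifiers. Counts were analysed with edgeR 4.0.16 in R 4.3.3 (filterByExpr, TMM, quasi-likelihood F-test, Benjamini-Hochberg over 12722 genes). On simulated counts with 200 genes of 12722 changed 2-fold, up or down, 182 were recovered and 14 others called. Smaller changes, such as most of those described here, were not simulated. Members were aligned to the best-matching coding sequence of the parent with Biopython 1.88, on either strand, and 50-base words were compared with all annotated transcripts. Sequences printed are from the GENCODE M21 transcripts. Levels per kilobase used the exonic length of a gene. The length and GC correction subtracted from each library a loess trend (span 0.3) of its log2 CPM deviations on log2 exonic length and GC content. DESeq2 1.42.0, limma-voom 3.58.1, other scalings, filters, a replicate block and leaving out each library were alternatives. The precision of a count is limited by counting error and by the 3 libraries per group.

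Named were Rpl13-ps3, the 8 members with the highest mean CPM, the 6 lowest and the 6 highest log2 fold changes of members averaging 1 log2 CPM or more, and their parents. 1 member named by this rule and 1 stretch of sequence are not reported here. Rpl13-ps6, the copies of Rpl35a, Rps19 and Rpl36a, the members within exons of other genes, and those under 1 log2 CPM were named after their values were seen. The members and lists were chosen with earlier results of these data known. The tamoxifen concentration differs between the study's texts (nM or μM) and is not given.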

Additional observations from a re-analysis of the deposited data

How the results depend on the processing

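The 49 calls of members, all lower except 1 higher call each without CTRL 3 and without CHD4-APR 3, numbered 44 with DESeq2 (17.7% of all genes called lower in that fit), 46 with limma-voom (17.7%), 51 with upper quartile scaling (20.4%), 49 of 102 members with at least 10 counts in every library (18.8%), 50 of 202 with no filter beyond 1 count (10.6%) and 37 to 51 without 1 library (11.8% to 17.9%). Only the correction for length and GC content moved them beyond 1.5 times, to 27 (16.6%), and to 32 with the replicate block added (18.9%). That correction moved the median of members to -0.18 (-0.18 with the block), that of parents to -0.15 (-0.15), the member minus parent difference to 0.032 (0.035) and the calls of ribosomal protein genes to 49. It gave 7 lower and 17 higher calls of other -ps pseudogenes, beside 16.6% and 11.4% of all genes. Its values were 0.072 (0.073) for Rpl3-ps1 and 0.015 (0.016) for Rpl17-ps10. Without 1 library the member minus parent difference ran from -0.089 to -0.056 and the calls of the other terminal oligopyrimidine mRNAs from 4 to 9. Without 1 library Rpl18-ps2 ran from -0.090 to 0.18 and was -0.039, -0.0040 and -0.090 without CTRL 3, CHD4-APR 1 and CHD4-APR 2. Rps27a-ps2 ran from -0.15 to 0.39 and was -0.11 and -0.15 without CTRL 1 and CTRL 2. The cause was not tested. Words of 100 bases gave a median share in the parent of 39.4%. The labels number replicates alike in both groups. Same-numbered libraries correlated at 0.070, 0.055 and -0.035 in their deviations, and the other pairs at -0.081 to 0.034. With 3 libraries per group these values cannot settle whether the libraries were paired. With the replicate block 53 members were called, 49 of them the same, beside 19.5% of all genes called lower. Identical copies counted once, added after seeing the data, gave 46 (17.8%). At low counts depth limits the members under 1 log2 CPM.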

Other observations

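Processed pseudogenes of ribosomal protein genes also occur without a -ps symbol. Among the 743 other processed pseudogenes tested, 149 had at least 20% of their 50-base words in a ribosomal protein gene, a limit set after the data were seen. Of these, 143 were lower in CHD4-APR, 66 (44.3%) were called lower and 0 higher by edgeR at an FDR of 0.05, and the median log2 fold change was -0.33. Of the 581 with no such word, 80 (13.8%) were called lower and 62 (10.7%) higher, with a median of -0.057. Over all genes tested 17.8% were called lower and 20.4% higher. The remaining 13 had a median of -0.19. Reads that match several copies may have been counted in more than 1 of these genes, and the difference between the sets was not tested.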
